A study of Mus musculus with 4 samples.

Results

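Expression of 8 mouse genes that take up, store and export iron or break down haem was followed in peritoneal macrophages. The genes were chosen by name and function: Tfrc, Slc11a2 and Slc11a1 (uptake and vesicular transport), Fth1 and Ftl1 (storage), Slc40a1 and Cp (export), and Hmox1 (haem breakdown). All 8 were listed among the 16403 genes of the deposited tables. The rule itself uses no measured value, but earlier results of these data were known when it was set.

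Total RNA was sequenced from wild-type (WT) and Trim24-deficient (knockout) macrophages, either untreated or exposed for 6 h to 20 ng/mL of IL-4. This cytokine induces alternative activation of macrophages, the M2 state, and the design asks how Trim24 alters that response. Each of the 4 groups held 1 library. Without replicates no difference below could be checked for repeatability, and a test on reads compares 2 libraries, not 2 conditions. The tables gave for each gene an expected count of reads, from the RSEM model, and an FPKM value, which scales that count by transcript length and library size.

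The 4 groups shared the C57BL/6 strain and the preparation. Mice aged 6 to 8 weeks received 4% thioglycolate, which recruits monocyte-derived macrophages to the peritoneum. Lavage followed after 4 days, cells adhered for 4 h, and medium with 0.5% serum was then used. The WT groups were littermates, whose Cre status is not given in the sources used here. The knockout groups (TIF1a-/- in the labels, TIF1a being another name of Trim24) carried Trim24 flox/flox alleles and a LysM-Cre transgene. This Cre acts in myeloid cells in general, so the deletion is not limited to macrophages, and how many mice were pooled per library is not given in the sources used here.

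Macrophages handle most of the iron that the body recycles. Transferrin receptor brings transferrin-bound iron into endosomes, divalent metal transporters move it across the vesicle membrane, ferritin cages store it, and ferroportin is the iron exporter of the cell surface. In cells short of iron, iron regulatory proteins bind hairpins called iron-responsive elements, which stabilise the Tfrc transcript from its 3′ UTR and block translation of ferritin and ferroportin transcripts from their 5′ UTR. In M2 macrophages this set of genes has been linked to iron release, and in inflammatory macrophages to iron retention.

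Library totals ran from 11026033 to 11250099 expected reads, and 3 reads, the smallest count taken as detectable, made up 0.267 to 0.272 CPM (reads scaled to a common library size). Intervals, standard errors and this floor cover counting error only, since reads without molecular identifiers are not independent molecules. The low values of Trim24 fell in the libraries labelled knockout: 2.55 and 1.48 FPKM in WT libraries without and with IL-4, and 0.06 and 0.14 FPKM in knockout libraries. All 8 macrophage markers had reads in every library. Fcgr1 stood at 4.99 to 8.90 FPKM, Mertk at 22.6 to 35.3 FPKM and Cd68 at 3005 to 3465 FPKM, with Lyz2, given below, higher still. With IL-4, Csf1r was called higher and Cd14 lower in both genotypes, and Fcgr1 lower in knockout cells. Between IL-4-treated genotypes, Mertk was called higher in knockout cells (log2 ratio 0.60), but not with the trend over transcript length removed (0.54). Lyz2, the gene into which this Cre is inserted, was listed at 10811 to 11289 FPKM in WT and 4761 to 5193 FPKM in knockout libraries. Summed markers of other cells were low, at 9.39 to 14.0 FPKM for 8 neutrophil genes, of which 5 had no reads in any library. The sums were 5.05 to 7.60 FPKM for 8 B and T cell genes and 3.11 to 8.03 FPKM for 8 eosinophil and mast cell genes, the highest of the latter in the untreated knockout library. For 8 mesothelial and stromal genes they were 22.5 to 45.7 FPKM, the lowest in the untreated knockout library. The part of such cells in the values below was not tested. Over transcript length the WT IL-4 library stood apart. In it, transcripts under 1000 bases had a median fitted trend of 0.14 (log2 scale, relative to the average library), and the median of those of at least 8000 bases was -0.38. Ratios with that trend removed are given where the removal ended or added a call or turned a direction among the members and iron lists, and for member ratios that it moved most.

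The transcripts of 4 members carry hairpins of the iron-responsive-element type in GRCm38 with the GENCODE M21 annotation. These are printed because the called members described below, Tfrc, Fth1 and Slc40a1, all hold such a hairpin. Ftl1 holds such a hairpin too and was not called. The choice to print them was thus made from the calls, and a link between hairpins and calls was not tested. The search took a CAGTGN loop closed by 5 base pairs, with an unpaired C before the 5′ arm, on the transcribed strand of annotated UTRs. The loop is in capitals, and each sequence runs 5′ to 3′ on the strand of the gene:
Fth1, 5′ UTR, chr19:9982733-9982759, plus strand: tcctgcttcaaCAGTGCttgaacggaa
Ftl1, 5′ UTR, chr7:45459780-45459806, minus strand: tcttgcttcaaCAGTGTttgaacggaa
Slc40a1, 5′ UTR, chr1:45925466-45925492, minus strand: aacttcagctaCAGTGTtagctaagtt
Tfrc, 3′ UTR, chr16:32631220-32631246, plus strand: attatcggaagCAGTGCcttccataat
Tfrc, 3′ UTR, chr16:32631599-32631625, plus strand: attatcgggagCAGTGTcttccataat
Tfrc, 3′ UTR, chr16:32631664-32631690, plus strand: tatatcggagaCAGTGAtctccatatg
Tfrc, 3′ UTR, chr16:32631711-32631737, plus strand: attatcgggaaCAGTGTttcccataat

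The Fth1 and Ftl1 hairpins were identical at 25 of 27 bases, and Tfrc held 4 such hairpins. A match was found in the 5′ UTR of 31 of 20580 genes with an annotated 5′ UTR (0.151%), and 3 of them were members. In 3′ UTRs it was found in 129 of 20962 genes (0.615%), and 1 of them was a member. A match is a description of letters and not evidence of binding. No match was found in these windows for Slc11a1, Slc11a2, Cp and Hmox1, which says only that the searched pattern was not there.

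The members ranged from the most abundant genes to genes near the detection floor. Fth1 was the most abundant gene of every library by FPKM and Ftl1 the next. Hmox1, Slc11a1, Tfrc and Slc11a2 lay between 27.6 and 230.9 FPKM, and Cp and Slc40a1 between 0.16 and 1.25 FPKM. The last 2 rested on 6 to 55 reads per library, so their ratios carry wide counting errors.

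**Figure D1:**
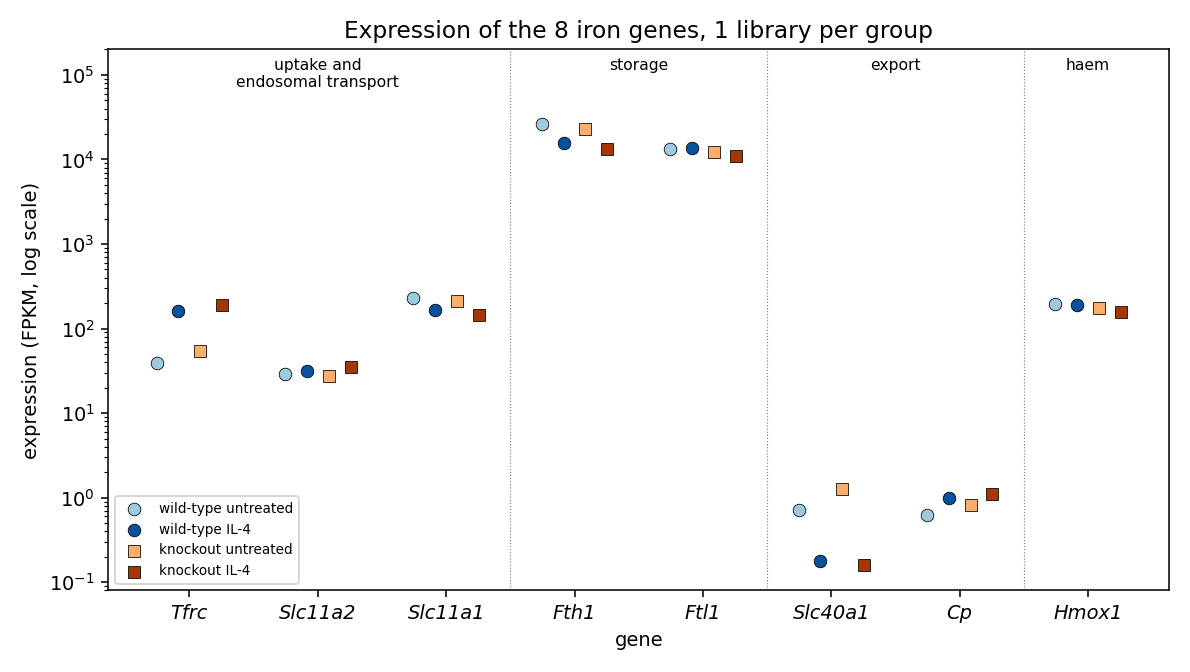
FPKM of the 8 iron genes on a log axis, with 1 point per library (circles, WT; squares, knockout; dark, with IL-4). The ferritin transcripts Fth1 and Ftl1 sit at 10912 FPKM or above, Slc40a1 and Cp near 1 FPKM or below, and Tfrc is the member whose IL-4 points lie clearly above its untreated points in both genotypes.

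IL-4 was compared with no treatment within each genotype, to ask which iron genes respond. Calls required an adjusted p under 0.05 (two-sided Fisher's exact test on reads, adjusted over all genes tested) together with a fold above 1.5 on the log2(FPKM + 0.1) scale. The same 3 members were called in both genotypes: Tfrc rose, and Fth1 and Slc40a1 fell. In WT cells 1 of 8 members was called higher, against 4.91% of all genes tested, and 2 of 8 lower, against 7.88%. In knockout cells the counts were again 1 and 2 of 8, against 5.29% and 4.03% of all genes. The median log2 ratio of the members was -0.03 in WT cells and -0.16 in knockout cells, beside -0.03 and 0 over all genes tested.

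Tfrc (gene ID 22042, chromosome 16, 32608896 to 32632794) encodes transferrin receptor, the main entry of transferrin-bound iron. It was listed at 39.1 FPKM in untreated and 163.4 FPKM in IL-4-treated WT macrophages, and knockout macrophages gave 54.3 and 191.6 FPKM. Both IL-4 libraries lay above both untreated libraries. The log2 ratio was 2.06 ± 0.03 (counting SE) in WT cells, a 4.17-fold rise, and 1.82 ± 0.03 in knockout cells, a 3.52-fold rise, and each adjusted p of the Fisher test was below what double-precision arithmetic holds. Ranked by this ratio, Tfrc was number 49 of 7463 genes averaging 5 FPKM or more in WT cells and number 69 of 7464 in knockout cells. Once a coefficient of variation of 0.4 between samples was assumed, it was not called in either genotype (edgeR exact test, adjusted p = 1 in both). In bulk RNA, fewer cells of a type and less RNA per cell cannot be told apart, here and below. Removing the length trend gave 2.26 and 1.85.

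Proliferating cells express Tfrc, so cell-cycle genes are given beside it. Of 10 listed cell-cycle genes, 2 were called higher with IL-4 in each genotype (20% of the list, beside 4.91% and 5.29% of all genes) and 0 lower: Mcm2 and Ccnb1, named here after their values were seen. Mki67 stood at 1.62 FPKM untreated and 1.46 FPKM with IL-4 in WT cells, and at 1.09 and 1.61 FPKM in knockout cells, where its log2 ratio of 0.52 became 0.68 and was called with the length trend removed. The summed level of the list was 151.5 and 189.5 FPKM in WT cells and 148.5 and 153.8 FPKM in knockout cells, most of it Pcna. The other 9 genes summed to 16.6 and 21.6 FPKM in WT cells and to 13.5 and 19.8 FPKM in knockout cells. The part of cell division in the Tfrc values was not tested.

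Slc11a2 (gene ID 18174, chromosome 15, 100387898 to 100424209) encodes divalent metal transporter DMT1, which carries iron out of the endosome after Tfrc has delivered it. WT macrophages gave 28.7 FPKM untreated and 31.9 FPKM with IL-4, and knockout macrophages gave 27.6 and 35.5 FPKM. The 4 values lay close together, with the IL-4 value the higher in each genotype. The log2 ratios were 0.15 ± 0.06 in WT cells (Fisher's exact test, adjusted p = 0.11) and 0.36 ± 0.06 in knockout cells (adjusted p = 7.2e-08), and both were under the 1.5-fold threshold.

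Slc11a1 (gene ID 18173, chromosome 1, 74375014 to 74386057) encodes NRAMP1, a metal transporter of the phagosome membrane that withholds iron from engulfed microbes. Its level was 230.9 FPKM in untreated and 164.7 FPKM in treated WT cells, and 212.0 and 143.0 FPKM in knockout cells. Both IL-4 libraries were the lower of their pair. The log2 ratios were -0.49 ± 0.03 in WT cells (Fisher's exact test, adjusted p = 2.6e-62) and -0.57 ± 0.03 in knockout cells (adjusted p = 4.9e-75), just short of the fold threshold of 0.58 on the log2 scale. With the length trend removed the ratios became -0.53 and -0.60, and the knockout value then passed the threshold.

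Fth1 (gene ID 14319, chromosome 19, 9980600 to 9985111) encodes the heavy chain of ferritin, which oxidises ferrous iron for storage. In WT cells Fth1 stood at 26195 FPKM untreated and 15800 FPKM with IL-4, and in knockout cells at 22696 and 13250 FPKM. Both IL-4 values were below both untreated values. The log2 ratio was -0.73 ± 0.005 in WT cells and -0.78 ± 0.005 in knockout cells, with adjusted p of the Fisher test below what double-precision arithmetic holds. The untreated libraries held 1.66 and 1.71 times the level of the treated libraries. With an assumed coefficient of variation of 0.2 Fth1 was not called in either genotype (edgeR exact test, adjusted p = 0.84 and 0.96). Removing the length trend gave -0.88 and -0.80.

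Ftl1 (gene ID 14325, chromosome 7, 45457944 to 45459886) encodes the light chain, which supports the growth of the iron core. In WT cells Ftl1 stood at 13451 FPKM untreated and 13561 FPKM with IL-4, and in knockout cells at 12205 and 10912 FPKM. The 2 WT libraries nearly coincided and the knockout IL-4 library was the lowest. The log2 ratios were 0.01 ± 0.005 (Fisher's exact test, adjusted p = 0.054) and -0.16 ± 0.006 (adjusted p = 5.1e-170), and neither passed 1.5-fold. The WT ratio turned to -0.14 once the length trend was removed, so its direction depends on that step.

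The balance of the 2 ferritin chains differed between untreated and treated libraries. The FPKM of Fth1 was 1.95 and 1.86 times that of Ftl1 in the untreated WT and knockout libraries, and 1.17 and 1.21 times with IL-4. Together the 2 genes took 3.72% of all reads in untreated WT macrophages (95% Wilson interval, 3.70% to 3.73%) and 2.77% with IL-4 (2.76% to 2.78%). In knockout cells they took 3.27% (3.26% to 3.28%) and 2.28% (2.27% to 2.28%). The FPKM of Tfrc per FPKM of Fth1 was 0.00149 untreated and 0.0103 with IL-4 in WT cells, and 0.00239 and 0.0145 in knockout cells. Ferritin genes have many processed pseudogenes in the genome, and no other Fth1, Ftl1 or Ftl2 gene was listed in the tables, so how reads from such copies were divided could not be examined.

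**Figure D2:**
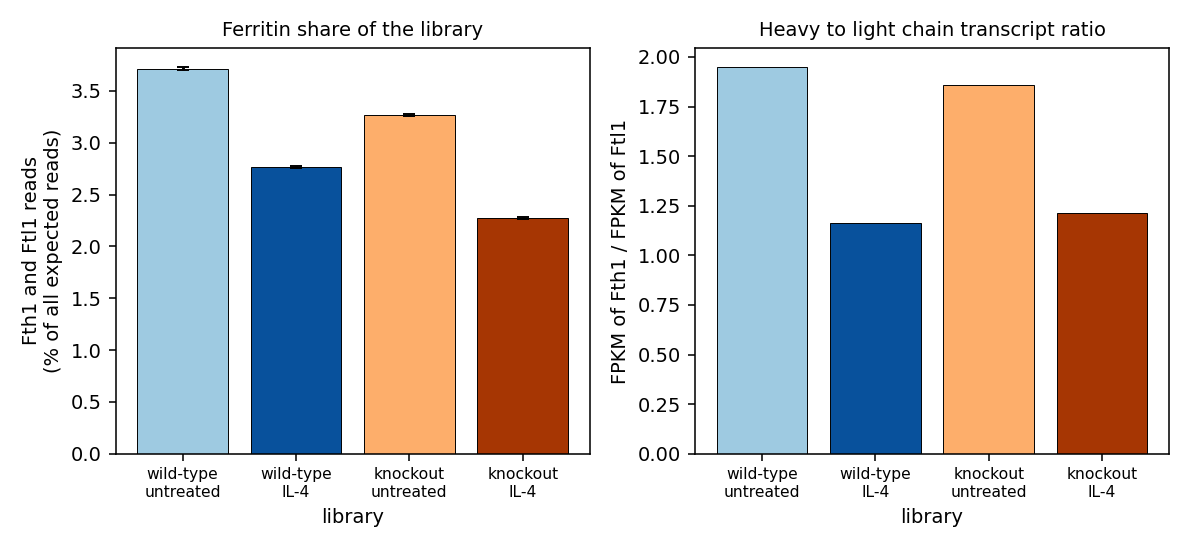
Left, percentage of all expected reads assigned to Fth1 and Ftl1 in each library, with 95% Wilson intervals (counting error only). Right, ratio of the FPKM of Fth1 to that of Ftl1. Both bars of each IL-4 library are lower than those of its untreated library, and the chain ratio falls from 1.95 to 1.17 in WT cells and from 1.86 to 1.21 in knockout cells.

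Slc40a1 (gene ID 53945, chromosome 1, 45908070 to 45926532) encodes ferroportin. WT libraries gave 0.72 FPKM untreated and 0.18 FPKM with IL-4 (27 and 7 reads), and knockout libraries gave 1.25 and 0.16 FPKM (47 and 6 reads). Both IL-4 libraries were below both untreated libraries. The log2 ratio was -1.55 ± 0.59 in WT cells (Fisher's exact test, adjusted p = 0.0020) and -2.38 ± 0.60 in knockout cells (adjusted p = 6.6e-08). At a pseudocount of 1 FPKM in place of 0.1 the WT ratio was -0.54 and was no longer called, nor was it with an assumed coefficient of variation of 0.2 (edgeR exact test, adjusted p = 0.25). In CPM the 95% Wilson intervals were 1.68 to 3.56 and 0.301 to 1.28 in WT cells, and 3.20 to 5.67 and 0.249 to 1.19 in knockout cells. The highest value, 1.25 FPKM, came from the untreated knockout library.

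Cp (gene ID 12870, chromosome 3, 19956933 to 20009750) encodes ceruloplasmin, a copper ferroxidase that works with ferroportin. WT libraries gave 0.62 FPKM untreated and 0.98 FPKM with IL-4 (31 and 48 reads), and knockout libraries gave 0.82 and 1.10 FPKM (40 and 55 reads). The Wilson intervals of the 4 libraries overlapped. The log2 ratios were 0.58 ± 0.33 (Fisher's exact test, adjusted p = 0.17) and 0.38 ± 0.30 (adjusted p = 0.31), so a difference was not detectable at this depth.

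Hmox1 (gene ID 15368, chromosome 8, 75093618 to 75100593) encodes haem oxygenase 1, which frees iron from haem. Its level was 196.9 FPKM in untreated and 188.1 FPKM in treated WT cells, and 173.9 and 155.7 FPKM in knockout cells. The knockout values were below the WT values. The log2 IL-4 ratios were -0.07 ± 0.03 (Fisher's exact test, adjusted p = 0.15) and -0.16 ± 0.04 (adjusted p = 0.00016), both far from 1.5-fold. The WT ratio was -0.16 after removal of the length trend. Red cell remnants are a source of haem for macrophages. The summed FPKM of 9 erythroid genes was 11.7 and 9.14 in WT cells and 5.16 and 4.38 in knockout cells, nearly all of it globin, with Hba-a2 and Slc4a1 at 0 in every library.

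**Figure D3:**
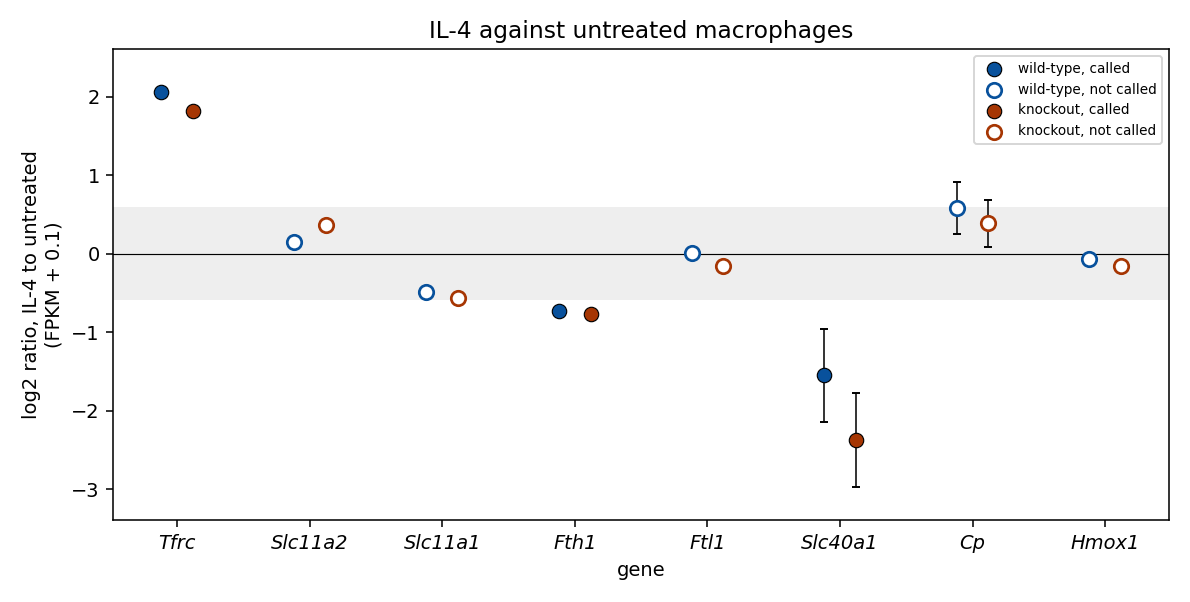
Log2 ratios of IL-4-treated to untreated macrophages for the 8 iron genes, WT (blue) and knockout (brown), with bars of 1 counting standard error. The grey band spans folds under 1.5, and filled points were called: Tfrc is near 2 in both genotypes, Fth1 just under the band and Slc40a1 lowest with wide bars.

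All 4 libraries were also fitted together with edgeR, with additive terms for genotype and IL-4, in which each genotype's IL-4 pair stands in for a repeat of the other. With the quasi-likelihood test, Tfrc was higher with IL-4 (1 of 8 members, against 12% of all genes tested) at a log2 effect of 1.95 and an adjusted p of 2.3e-09. Fth1, Slc11a1 and Slc40a1 were lower (3 of 8 members, against 13.3%). Their log2 effects were -0.74 for Fth1 (edgeR adjusted p = 0.00013), -0.52 for Slc11a1 (adjusted p = 0.00043) and -2.47 for Slc40a1 (adjusted p = 0.00045). DESeq2 also called 4 members, and limma on log2 FPKM called 3 of the 6 it tested. An offset for the length trend made edgeR call 6 members, Slc11a2 (log2 effect 0.26, adjusted p = 0.0020) and Hmox1 (-0.17, adjusted p = 0.049) being added. This fit has 1 residual degree of freedom, and a true interaction would enter its spread.

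The knockout was then compared with WT at each treatment, to ask whether Trim24 loss moved the iron genes. No member was called. Without IL-4, 0 of 8 were higher, against 0.839% of all genes, and 0 of 8 lower, against 0.742%. With IL-4, 0 of 8 were higher, against 3.05%, and 0 of 8 lower, against 0.764%. In each comparison 5 of the 8 had an adjusted p under 0.05 by the Fisher test with a fold under 1.5, and these p-values measure counting error only.

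Tfrc showed the greatest positive ratio among the members with over 1000 reads in each library. Its knockout to WT log2 ratio was 0.47 ± 0.04 without IL-4, at 54.3 against 39.1 FPKM, and 0.23 ± 0.02 with IL-4, at 191.6 against 163.4 FPKM. The second ratio shrank to 0.05 with the length trend removed, while the first stayed at 0.46. Both knockout libraries were the higher of their pair.

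The ferritin and haem genes lay on the other side. Fth1 was listed lower in knockout cells at log2 ratios of -0.21 without and -0.25 with IL-4, Ftl1 at -0.14 and -0.31, Hmox1 at -0.18 and -0.27, and Slc11a1 at -0.12 and -0.20. With the length trend removed, the ratios with IL-4 shrank to -0.09 for Fth1, -0.15 for Ftl1, -0.18 for Hmox1 and -0.16 for Slc11a1, all still negative, and the ratios without IL-4 were -0.17, -0.10, -0.14 and -0.10. Slc11a2 was at -0.06 and 0.15, and Cp at 0.35 ± 0.34 and 0.15 ± 0.28, the latter 0.02 without the trend. Slc40a1 was at 0.72 ± 0.35 in untreated cells (Fisher's exact test, adjusted p = 0.18) and at -0.11 ± 0.77 in treated cells (adjusted p = 1), on counts too low to show a difference of that size.

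**Figure D4:**
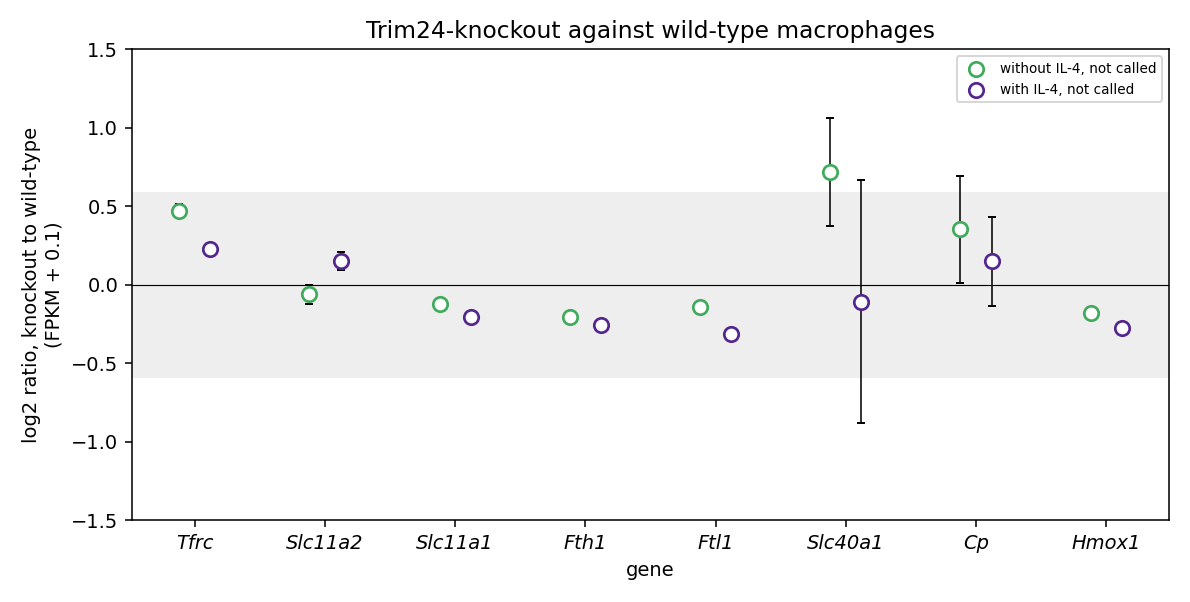
Log2 ratios of knockout to WT macrophages for the 8 iron genes, without IL-4 (green) and with IL-4 (purple), with bars of 1 counting standard error and a grey band for folds under 1.5. All points are open because no member was called, and only Slc40a1 without IL-4 (0.72) lies outside the band.

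In the additive model the genotype effect called 0 of 8 members higher, against 1.29% of all genes, and 0 of 8 lower, against 0.373%. By adjusted p, DESeq2 and limma called 0 as well. At an unadjusted p under 0.05, 4 of the 8 passed in edgeR, 3 of 8 in DESeq2 and 2 of the 6 tested in limma. With the length trend as an offset 1 was called, Tfrc, at a log2 genotype effect of 0.25 (edgeR adjusted p = 0.016).

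Whether the IL-4 response itself differed between genotypes was tested on the difference of the log2 responses, knockout minus WT, against counting error. No member was called: 0 of 8 were higher, against 2.03% of all genes tested, and 0 of 8 lower, against 0.335%. The difference was -0.24 for Tfrc (95% interval, -0.33 to -0.15), -0.17 for Ftl1 (-0.19 to -0.16) and -0.05 for Fth1 (-0.06 to -0.04), so these 3 differed by more than counting error but by less than 1.5-fold. It was 0.23 for Slc11a2 (0.06 to 0.39). The remaining intervals included 0, and those of Slc40a1 (-2.63 to 0.69) and Cp (-1.01 to 0.73) were wide enough to hold a difference of 1.5-fold either way. Removing the length trend gave a Tfrc difference of -0.41 and an Ftl1 difference of -0.05, and turned the Fth1 difference to 0.08.

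The wider iron and haem pathway was followed with 7 lists holding 65 further genes, of which 64 were listed in the tables. In WT cells 3 of 64 were called higher with IL-4 (4.69%) and 5 lower (7.81%), near the shares of 4.91% and 7.88% over all genes. In knockout cells 3 of 62 were higher (4.84%) and 1 lower (1.61%), beside 5.29% and 4.03%. The additive fit, which calls by adjusted p whatever the fold, called 9 of 50 list genes higher with IL-4 (18%) and 7 lower (14%). Its shares over all genes were 12% and 13.3%. For genotype it called 2 of 50 higher (4%) and 0 lower, beside 1.29% and 0.373% of all genes. No test of the lists was made.

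Among list genes averaging 5 FPKM or more, Hfe, Cisd1 and Slc25a37 were called in both IL-4 comparisons. Hfe, whose product binds transferrin receptor and lowers its affinity for transferrin, went from 9.29 to 21.7 FPKM in WT cells and from 9.72 to 20.9 FPKM in knockout cells. Its log2 ratios were 1.22 and 1.10. The receptor and its partner both rose.

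Cisd1 encodes mitoNEET, an iron-sulphur protein of the outer mitochondrial membrane. It rose from 13.0 to 51.0 FPKM in WT cells and from 11.03 to 54.0 FPKM in knockout cells (log2 ratios 1.96 and 2.28). Slc25a37, which encodes the mitochondrial iron importer mitoferrin-1, fell from 8.35 to 2.75 FPKM and from 7.45 to 3.22 FPKM (log2 ratios -1.57 and -1.19). These 2 mitochondrial genes moved in opposite directions.

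The other called genes were chosen for naming after their values were seen. In WT cells alone Abcg2, a haem and porphyrin exporter, rose (log2 ratio 0.68), and Lrp1, Steap2, Steap4 and Slc25a28 fell (log2 ratios -1.22, -0.93, -1.35 and -0.60). Few reads lay behind Steap2 (54 untreated and 24 with IL-4) and Steap4 (55 and 20). Lrp1 and Steap2 have long transcripts, of 14907 and 10324 bases, and with the length trend removed their ratios were -0.50 and -0.38 and neither was called. In knockout cells alone Epas1, which encodes the hypoxia factor HIF-2α, rose (log2 ratio 0.62). Removing the trend added calls for Hmox2 (-0.60), Hp (-0.69) and Alad (0.65) in WT cells and for Steap4 (-1.07) and Hmox2 (-0.59) in knockout cells. A call in 1 genotype alone does not show a difference between genotypes, and the test of that difference called 2 genes of the lists, Lrp1 and Slc39a14, neither of which was called with the trend removed.

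**Figure D5:**
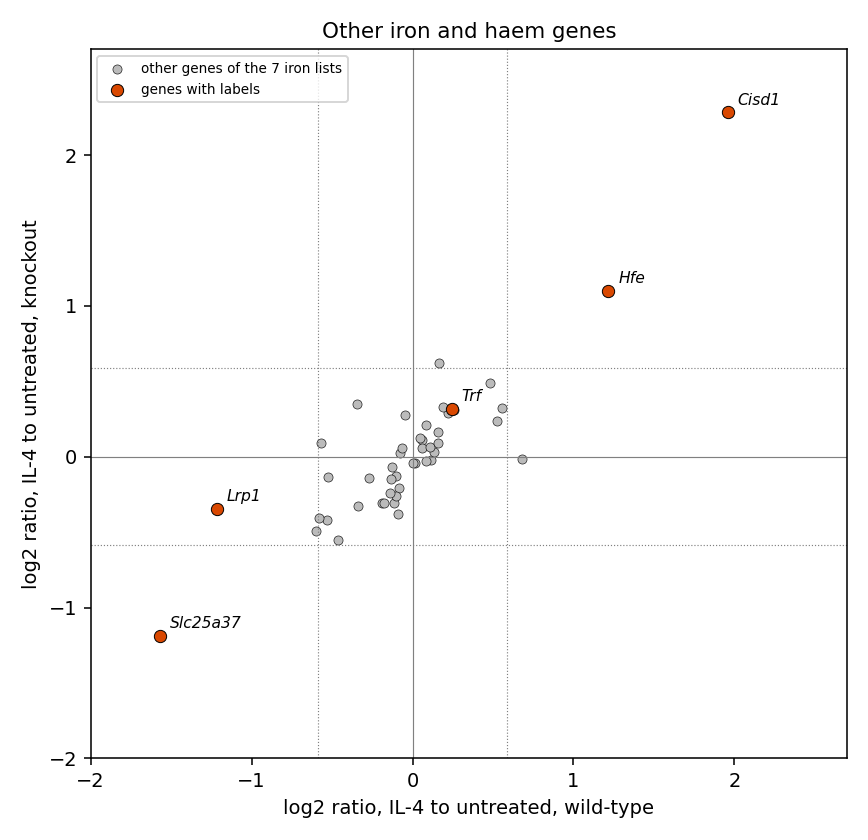
Log2 IL-4 ratios of 47 further iron and haem genes averaging 1 FPKM or more, WT on the horizontal and knockout on the vertical axis. Dotted lines mark a fold of 1.5, most genes lie inside them, and Cisd1, Hfe and Slc25a37 lie beyond them in both genotypes.

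Between genotypes, 2 of 61 list genes were called higher without IL-4 (3.28%, beside 0.839% of all genes) and 3 lower (4.92%, beside 0.742%). With IL-4, 3 of 63 were called higher (4.76%, beside 3.05%) and 0 lower (beside 0.764%). Trf, which encodes transferrin, the ligand of Tfrc, was called in both. WT libraries gave 63.8 FPKM untreated and 75.6 FPKM with IL-4, and knockout libraries gave 96.5 and 120.3 FPKM. Its knockout to WT log2 ratio was 0.60 in untreated cells (Fisher's exact test, adjusted p = 4.0e-37) and 0.67 in treated cells (adjusted p = 1.1e-57), and both knockout libraries lay above both WT libraries. Named after their values were seen, Abcg2 was the other gene higher without IL-4, and Steap2, Steap4 and Hp were lower. In untreated WT and knockout cells Steap2 had 0.47 and 0.19 FPKM (54 and 22 reads) and Steap4 1.58 and 0.77 FPKM (55 and 27 reads). Counts this low carry wide counting errors. By Fisher's exact test the adjusted p was 0.041 for Abcg2, 0.0075 for Steap2, 0.042 for Steap4 and 0.016 for Hp. Also named in this way, Lrp1 and Epas1 were higher with IL-4 (log2 ratios 0.93 and 0.97). After removal of the trend the Lrp1 ratio was 0.31 and was not called, and that of Epas1 was 0.76.

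Of the iron sensors, Aco1 and Ireb2, which encode the iron regulatory proteins that bind iron-responsive elements, were listed at 23.2 to 25.1 FPKM and 9.39 to 9.68 FPKM over the 4 libraries. Neither was called in any pair. Binding to the hairpins printed above was not measured. Ncoa4, the receptor that delivers ferritin to lysosomes, stood at 154.4 FPKM untreated and 122.2 FPKM with IL-4 in WT cells, and at 163.3 and 129.98 FPKM in knockout cells, at log2 ratios of -0.34 and -0.33 that were not called. Of 9 genes of haem synthesis none was called in any of the 4 pairs, apart from the Alad call made with the trend removed. The additive fit, which calls by adjusted p whatever the fold, gave calls here. With IL-4 it called 2 of the 8 haem synthesis genes tested higher and 0 lower, against 12% and 13.3% of all genes. Of 3 genes tested from the list of iron storage and ferritin turnover, 1 was called higher and 1, Ncoa4, lower. Hamp, which encodes the ferroportin-binding hormone hepcidin, had at most 0.24 FPKM.

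By pattern over the 4 libraries, the genes nearest to Tfrc and Fth1, the widest-ranging members with at least 50 reads, were sought among 7456 genes averaging 5 FPKM or more. Likeness was the Euclidean distance of log2(FPKM + 0.1) values centred on each gene's mean. Nearest to Tfrc was Rgcc (distance 0.054), listed at 1.78, 7.48, 2.38 and 8.74 FPKM in untreated and treated WT and then untreated and treated knockout cells, and Bcar3 (0.20) was also among the nearest. Nearest to Fth1 were Akr1b8 (0.061), Fgr (0.067) and Glipr1 (0.075). With 4 libraries such likeness is a description only.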

How the data were processed

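Total RNA of 4 libraries, 1 per group, was sequenced on an Illumina HiSeq instrument. The authors aligned the reads to the GRCm38 (mm10) build by Bowtie and estimated gene levels by RSEM; versions and the use of strand are not given in the sources used here. The deposited tables hold 1 library each, with an expected count, an FPKM value and a transcript length per gene. From 22.2% to 22.8% of expected counts per deposited table were fractional, since RSEM divides reads that match several genes, so values of near-identical genes are uncertain. Genes not listed were set to 0. Of 16403 gene IDs, 16365 matched a symbol in a RefSeq table of GRCm38.p6 and 38 did not.

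Expected counts were rounded to whole numbers. Each pair of libraries was compared by Fisher's exact test per gene (scipy 1.17.1), adjusted by Benjamini-Hochberg over all genes with a read in the pair. The log2 ratios use FPKM + 0.1, which understates changes of low genes. The difference of responses used counts plus 0.5 and a z test. The additive fit used edgeR 4.0.16 (TMM, filterByExpr, quasi-likelihood test). The alternatives were other pseudocounts, expression filters, scalings, a fold of 2, assumed coefficients of variation, DESeq2 1.42.0, limma 3.58.1, and removal of a lowess curve (fraction 0.3, statsmodels 0.14.6) of each library's log2 deviation over log2 transcript length.

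The members, lists, tests and alternatives were chosen with earlier results of these data known. Named besides the members were Trim24, genes of the 7 iron lists with a mean of at least 5 FPKM called in the same direction in both IL-4 pairs or both genotype pairs or in the difference of responses, and the 3 genes nearest in pattern to the 2 widest-ranging members. Hairpins were searched in UTRs derived from the GENCODE M21 annotation.

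On counts simulated with counting error only and 200 changed genes, the pair test recovered 199 with 6 false calls among 16403 genes. The changed genes had ample reads and shared 1 size of change. No variation between samples was simulated, so these figures say nothing of false calls from such variation. A length trend put into 1 simulated library, steeper than that of the WT IL-4 library, raised the false calls to 965, and its removal left 1. The difference test recovered 195 with 4 false calls among 13734 genes, and the additive fit recovered 200 with 22 false calls among 11740. Some genes that these rules or lists take in are not reported here.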

Additional observations from a re-analysis of the deposited data

Results flagged for a closer look

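Among the iron lists, 2 genes stood out because their IL-4 responses differed between genotypes by the test of that difference. For Lrp1, which encodes an endocytic receptor of haem-hemopexin complexes, the difference of the log2 responses, knockout minus WT, was 0.87 ± 0.02 (counting SE). WT cells gave 129.7 FPKM untreated and 55.7 FPKM with IL-4, and knockout cells gave 134.4 and 105.9 FPKM. Its transcript of 14907 bases is long, and with the length trend removed the difference was 0.38. That value was not called because it was under 1.5-fold, though beyond counting error (z test, adjusted p = 6.0e-57). For Slc39a14, which encodes the metal transporter ZIP14 that can carry iron not bound to transferrin, the difference was 0.71 ± 0.22 (z test, adjusted p = 0.014), with 3.44 FPKM untreated and 2.69 FPKM with IL-4 in WT cells, and 3.10 and 3.97 FPKM in knockout cells. With the trend removed it was 0.54 (adjusted p = 0.16) and was not called. Each value rests on 1 library per group.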

How the results depend on the processing

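Of 56 recomputed counts of called members, 52 stayed within 1.5 times the count reported. A fall from 3 to 2, as for IL-4 in WT cells at a fold of 2, is within that range. The counts for genotype and for the difference of responses began at 0, which a stricter setting cannot lower. With an assumed coefficient of variation of 0.2, 1 member (Tfrc) was called for IL-4 in WT cells, and with 0.4 the count was 0 in each genotype. With the length trend as an offset the additive genotype effect called 1 member. Of 434 results of single members under other settings, 415 kept their direction and side of the threshold, 12 lost and 4 gained a call, and 3 changed sign. The expression filter, the fold of 2 and the assumed coefficients of variation leave the ratio itself unchanged. Another pseudocount changes the size of a pair ratio but cannot change its sign. Under all of these settings a direction could not turn, so 415 overstates how far the ratios were tried. The changes of sign were Ftl1 for IL-4 in WT cells (-0.14) and the Fth1 difference of responses (0.0778), both with the length trend removed. The other was Slc11a2 for the additive genotype effect with upper-quartile scaling (-0.0127). Leaving out a library was not possible with 1 per group. At this depth Slc40a1 and Cp rest on 6 to 55 reads, so only large differences could be shown for them. For the same reason no paired analysis was possible, since 1 library per group leaves no replicates to pair.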

Other observations

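Targets of NRF2 and BACH1, regulators that also act on Hmox1 and the ferritin genes, were followed with 8 genes outside iron metabolism. With IL-4 the test called 0 higher and 1 lower in WT cells, and 0 higher and 3 lower in knockout cells, beside 7.88% and 4.03% of all genes called lower. Their median log2 ratio was -0.49 in WT cells and -0.47 in knockout cells, beside -0.03 and 0 over all genes tested. Srxn1, which encodes sulfiredoxin, fell in both genotypes, from 61.4 to 36.4 FPKM and from 47.9 to 28.3 FPKM (log2 ratios -0.75 and -0.76). In knockout cells Prdx1 (458.7 to 289.9 FPKM) and Gclm (17.6 to 10.2 FPKM) fell as well, and these were named after their values were seen. Slc7a11, the cystine transporter of the same list, lay on the other side, at 56.8 and 83.5 FPKM in WT cells and 54.6 and 69.7 FPKM in knockout cells (log2 ratios 0.55 and 0.35, not called). With the length trend removed its WT ratio was 1.05 and was called, as was Gclm at -0.61. Between genotypes 0 of 8 were called higher. Without IL-4 1 was lower in knockout cells, Nqo1 (log2 ratio -1.81, 36 and 9 reads), beside 0.742% of all genes. With IL-4 0 were lower, beside 0.764%. The additive fit called 1 of 8 higher and 5 lower with IL-4, against 12% and 13.3% of all genes. For genotype it called 0 higher and 2 lower, against 1.29% and 0.373%.

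Other genes whose annotated UTRs hold a hairpin of the searched kind were counted as well. Of 24 such genes with a match in the 5′ UTR that were tested in each IL-4 pair, 1 was called higher and 2 lower in WT cells, and 2 higher and 0 lower in knockout cells. Of those with a match in the 3′ UTR, 4 of 101 were higher and 14 lower in WT cells, and 2 of 103 higher and 5 lower in knockout cells. The shares of all genes called were 4.91% higher and 7.88% lower in WT cells, and 5.29% and 4.03% in knockout cells. Between genotypes with IL-4, 5 of 103 genes with a 3′ UTR match were called higher in knockout cells and 0 lower, beside 3.05% and 0.764% of all genes. Without IL-4, 0 of 99 were called higher and 0 lower. All these counts keep the length trend, in which the WT IL-4 library stood apart. The part of that trend in them was not tested. Named after its values were seen, Serpina3g, a serpin with a match in the 5′ UTR, rose from 0.83 to 13.0 FPKM in WT cells and from 1.09 to 14.1 FPKM in knockout cells.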
